A study of Canis lupus familiaris with 30 samples.

Results

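Interleukin receptor chains of lymphocytes were followed in lymph nodes of dogs with lymphoma, through 6 of 7 listed genes: IL7R, IL2RB, IL2RA, IL2RG, IL4R and IL10RA. The listed chains were chosen with results of these data in view, and IL7R and IL2RB in particular were picked because they were higher at 6 weeks, so their change between timepoints is given below as a description with no test. Ensembl gene IDs were found for 6 of the 7 symbols among 32704 IDs of the CanFam3.1 table, and IL21R was not analysed here. All 6 genes had a mean above 1 FPKM over the 30 libraries (fragments per kilobase of transcript, scaled to the depth of the library) and were among the 14257 IDs tested.

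Cells were drawn by fine needle aspiration from enlarged lymph nodes of 15 dogs with lymphoma, once at the 6-week timepoint, after 6 weeks of CHOP (cyclophosphamide, doxorubicin, vincristine and prednisone), and once at the initial timepoint, before CHOP. An injection of prednisone before enrolment was allowed, so the initial libraries are free of CHOP but not in every case known to be free of glucocorticoid. Immunophenotyping by flow cytometry gave a T-cell label to 3 dogs (028, 036 and 038) and a B-cell label to 7 dogs (003, 027, 029, 030, 033, 034 and 037), and 5 dogs had no result (024, 025, 026, 031_032 and 035). Each dog gave 1 library per timepoint, so all errors and p-values measure the spread between dogs. The dogs were patients of no restricted breed, sex or age, and an aspirate holds whatever cells the needle drew, so that in these bulk samples fewer cells of a type and less RNA per cell cannot be told apart.

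Interleukin receptors work as assemblies. IL2RG, the common gamma chain, pairs with IL7R for interleukin-7, with IL2RB for interleukin-2 and interleukin-15, and with IL4R for interleukin-4, while IL2RA (CD25) raises the affinity for interleukin-2 and IL10RA binds interleukin-10. The chains carry no enzyme of their own, and those that signal, which do not include IL2RA, act through bound Janus kinases and STAT transcription factors. IL7R is a survival receptor of naive and memory T cells, IL2RB is prominent on natural killer cells and antigen-experienced T cells, and IL2RA marks activated lymphocytes and regulatory T cells, as known mainly from human and mouse.

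Total counts ranged from 4318394 to 22952193 in 6-week libraries and from 10047845 to 43413353 in initial libraries. The label was checked against genes that mark T cells (7 of 15 listed had an ID) and B cells (3 of 11). In dogs 028 and 036, labelled T-cell, the summed FPKM of the T-cell genes at the initial timepoint was 599 and 837, and that of the B-cell genes was 5.33 and 1.42. Dog 038, also labelled T-cell, went against its label at that timepoint, with a T-cell sum of 41.0 and a B-cell sum of 139.8. In that library PAX5, a B-lineage transcription factor, was at 62.8 FPKM and CD3E, a chain of the T-cell receptor complex, at 14.6 FPKM. At 6 weeks the T-cell sum of dog 038 (118) was higher than its B-cell sum (52.6). Dog 029, labelled B-cell, had T-cell sums of 633 at 6 weeks and 507 initially, with B-cell sums of 28.4 at 6 weeks and 69.5 initially. The 6-week library of dog 034, labelled B-cell, also had a higher T-cell sum (419) than B-cell sum (43.9), while its initial library had 96.9 and 115. Differences between labels are therefore given below also without dogs 029 and 038, for the receptor chains only, and those at 6 weeks also without dog 034. These dogs were left out for their marker sums, so label differences at a timepoint without them are a description with no test.

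**Figure D1:**
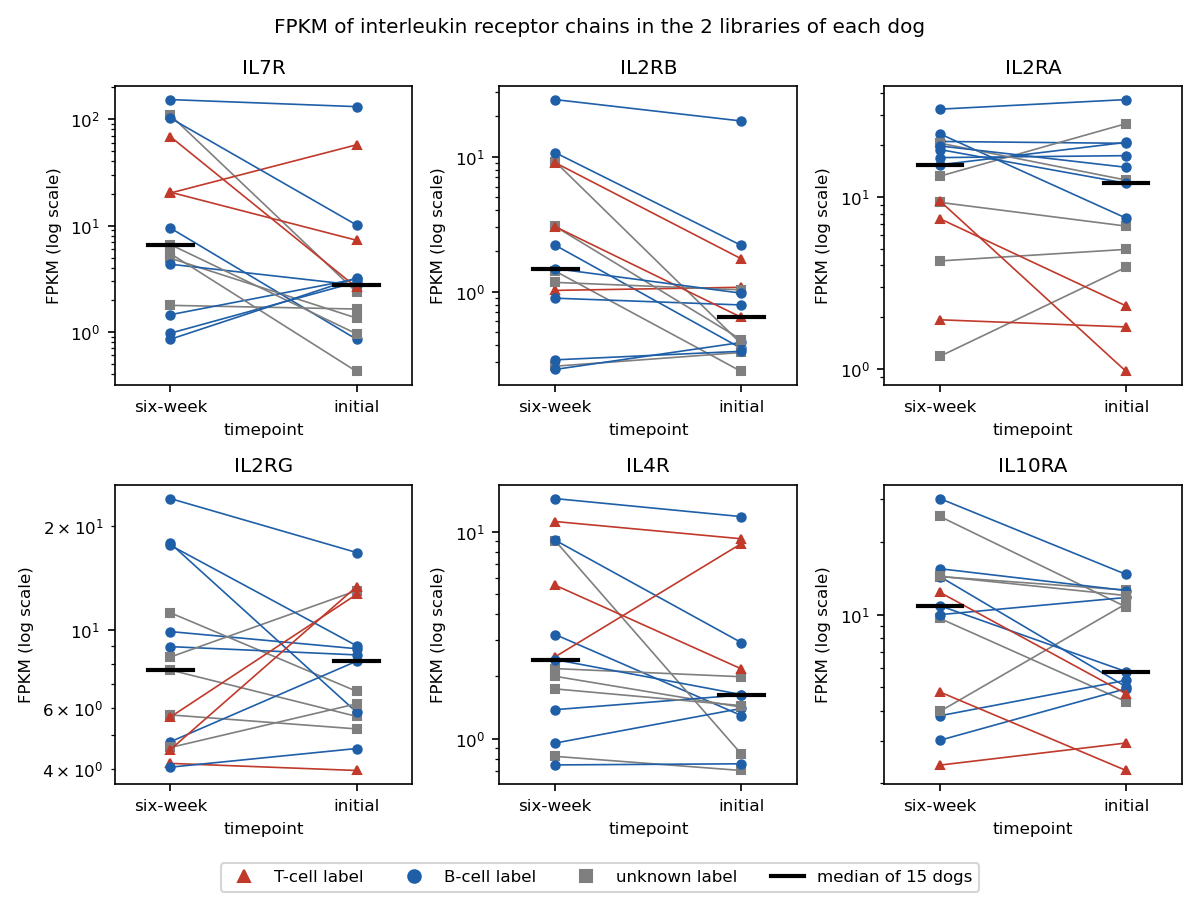
FPKM on a log scale of each receptor chain in the 6-week and the initial library of each of 15 dogs, joined by a line, with the median of each timepoint as a bar. The median of IL7R was 6.62 FPKM at 6 weeks and 2.75 FPKM initially, and the 2 timepoints overlapped in every chain.

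Of the 2 chains picked for their rise, IL7R had the wider range. At 6 weeks it lay between 0.853 and 152.8 FPKM, with a median of 6.62 FPKM, and at the initial timepoint between 0.424 and 131 FPKM, with a median of 2.75 FPKM. The 6-week value was the higher one in 11 of 15 dogs, and the change on the log2(FPKM+1) scale averaged 1.22 ± 1.99 (SD, n = 15). That scale adds 1 to each value and understates the change of genes with low FPKM. The largest changes came from a few dogs. Dog 025 had 109 FPKM at 6 weeks and 2.36 FPKM initially. Dog 036 had 68.4 FPKM at 6 weeks and 2.62 FPKM initially, and dog 034 had 102 FPKM at 6 weeks and 10.1 FPKM initially. Dog 029 was high at both timepoints, with 153 FPKM at 6 weeks and 131 FPKM initially. Dog 028 went the other way, with 20.2 FPKM at 6 weeks and 57.4 FPKM initially, and dogs 027, 033 and 037 were lower at 6 weeks as well.

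IL2RB, the chain shared by the interleukin-2 and interleukin-15 receptors, was the lowest of the 6 chains in 21 of 30 libraries. It lay between 0.265 and 26.4 FPKM at 6 weeks (median 1.48) and between 0.256 and 18.3 FPKM initially (median 0.644). It was higher at 6 weeks in 11 of 15 dogs, with a mean log2 change of 0.81 ± 0.920 (SD, n = 15). Both values were highest in dog 029, with 26.4 FPKM at 6 weeks and 18.3 FPKM initially. The next values were all of 6-week libraries. These were 10.7 FPKM in dog 034 (2.19 initially), 9.16 FPKM in dog 025 (0.409 initially) and 9.01 FPKM in dog 038 (1.75 initially). In the 4 dogs in which IL2RB was lower at 6 weeks (024, 027, 028 and 033), the difference did not exceed 0.17 on the log2 scale.

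The changes of both chains were unequal between the 9 dogs in which the deposited counts follow the FPKM values and the 6 dogs in which they do not (024, 027, 028, 029, 030 and 035). IL7R had a mean log2 change of 1.95 in the 9 dogs and of 0.13 in the 6 dogs, and IL2RB of 1.31 in the 9 dogs and of 0.06 in the 6 dogs. The difference between these sets was not tested. The study's cluster groups, which differed in progression-free survival, also hold 6 and 9 dogs, with the same numbers of T-cell, B-cell and unknown labels. The cluster of a dog is not among its labels, so whether the sets are those groups was not tested. Read counts of the 9 dogs, free of the added 1, gave log2 changes of 2.41 for IL7R and 2.22 for IL2RB by edgeR, and of 2.44 and 2.25 by DESeq2. The counts behind these values were small for some libraries, from 21 to 1595 reads for IL7R and from 17 to 516 reads for IL2RB in 18 libraries, so that the lowest values carry a large counting error.

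**Figure D2:**
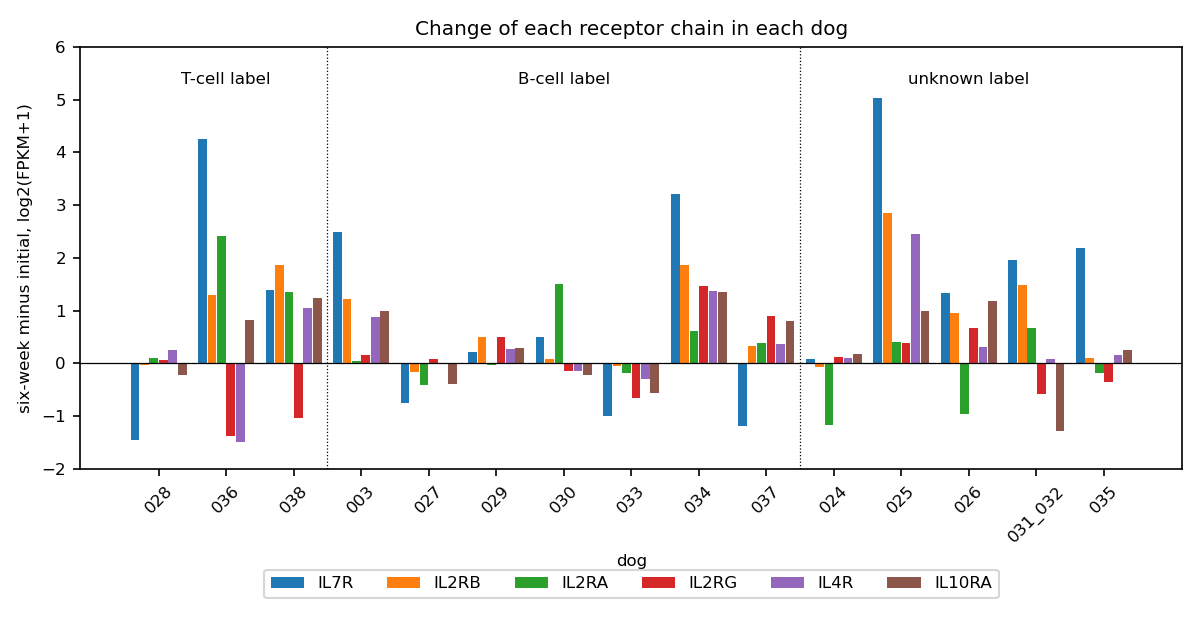
Six-week minus initial log2(FPKM+1) of each chain in each dog, grouped by T-cell, B-cell and unknown label. The IL7R bars reach 5.03 in dog 025 and 4.26 in dog 036, and the lowest, in dog 028, is -1.46.

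The other 4 chains were tested between timepoints, and none passed (0 of 4, limma, with the dog as a block), where 0% of the 14257 IDs did. At an unadjusted p-value under 0.05, 0 of the 4 passed beside 12.8% of all IDs. In the counts of 9 dogs, DESeq2 called none of the 4 among 498 calls in all, and edgeR called none of the 4 among 0 calls in all. IL4R, the chain that binds interleukin-4, had a median of 2.41 FPKM at 6 weeks and 1.63 FPKM initially. It was higher at 6 weeks in 11 of 15 dogs, with a log2 difference of 0.36 (SE 0.210, FDR-adjusted p-value 0.481, limma). IL10RA had a median of 10.9 FPKM at 6 weeks and 5.80 FPKM initially, was higher in 10 of 15 dogs and differed by 0.36 (SE 0.187, FDR-adjusted p-value 0.421, limma). IL2RA had medians of 15.4 FPKM at 6 weeks and 11.99 FPKM initially and differed by 0.30 (SE 0.221, FDR-adjusted p-value 0.583, limma). IL2RG, which the other gamma-chain receptors depend on, had medians of 7.69 FPKM at 6 weeks and 8.16 FPKM initially. Its mean difference was 0.01 (SE 0.179, FDR-adjusted p-value 0.991, limma), from 1.46 in dog 034 to -1.37 in dog 036.

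Genes of other cell types were measured in the same libraries. The 7 T-cell genes all had a positive mean difference at 6 weeks (median log2 difference 0.70), as did the 6 natural killer and cytotoxic genes (0.55) and the 6 myeloid genes (0.67), where the median of all IDs was -0.01. The 3 B-cell genes all had a negative one (median -0.26), and none of the genes of these 4 lists passed the test. T-cell sums ranged from 27.6 to 633 FPKM at 6 weeks and from 20.7 to 837 FPKM initially, and myeloid sums from 6.41 to 435 FPKM at 6 weeks and from 7.57 to 108 FPKM initially. Among the defining markers, ZAP70 was at 0 in 1 library, and CD3E was above 0 in all 30. In dog 025, with the largest IL7R and IL2RB changes, the T-cell sum was 480 FPKM at 6 weeks and 38.7 FPKM initially, and the myeloid sum 325 FPKM at 6 weeks and 18.4 FPKM initially. In dog 034 the T-cell sum was 419 FPKM at 6 weeks and 96.9 FPKM initially, and the myeloid sum 211 FPKM at 6 weeks and 29.8 FPKM initially. The 6-week library of dog 034 also had 21042 IDs above 1 FPKM, against 14170 in its initial library. In dog 036 the T-cell sum was 269 FPKM at 6 weeks and 837 FPKM initially, opposite to IL7R, while its B-cell sum was 41.5 FPKM at 6 weeks and 1.42 FPKM initially. The part of these cell types in the values of the receptor chains was not tested.

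**Figure D3:**
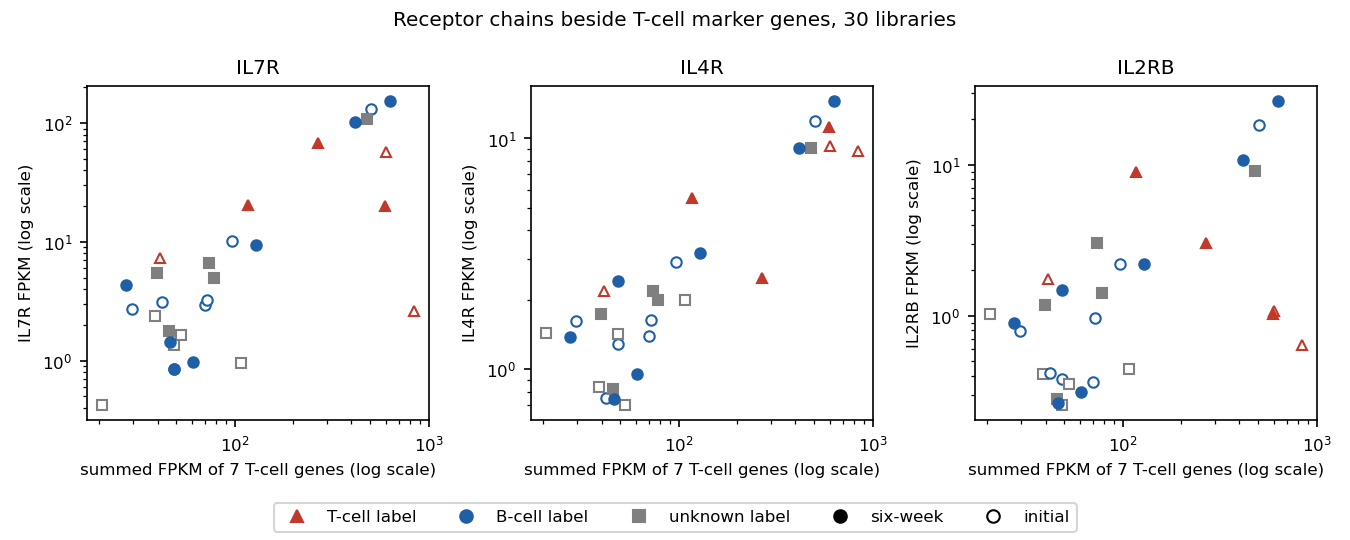
FPKM of IL7R, IL4R and IL2RB against the summed FPKM of 7 T-cell genes in 30 libraries, both axes on a log scale, with 6-week libraries filled and initial libraries open. The 7 libraries with T-cell sums from 419 to 837 hold the 7 highest values of IL4R, but IL7R is at 2.62 FPKM and IL2RB at 0.644 FPKM in the library with the highest T-cell sum.

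The 3 chains that varied together did not follow the T-cell genes equally. The 7 libraries with the highest IL4R, from 8.79 to 14.5 FPKM, were the 7 with the highest T-cell sums, and the next IL4R value was 5.52 FPKM (the number 7 was chosen after the values were seen). These were both libraries of dogs 028 and 029, the initial library of dog 036 and the 6-week libraries of dogs 025 and 034. Of the 7 libraries with the highest IL7R, 5 were among these and 6 were among the 7 with the highest myeloid sums. The seventh and eighth IL7R values were close, at 20.6 and 20.2 FPKM. For IL2RB the numbers were 4 and 6. The initial library of dog 036 had the highest T-cell sum (837 FPKM) and 2.62 FPKM of IL7R and 0.644 FPKM of IL2RB. Dog 028 had IL2RB values of 1.02 FPKM at 6 weeks and 1.08 FPKM initially beside T-cell sums of 596 FPKM at 6 weeks and 599 FPKM initially. IL2RA was different again, since none of its 7 highest libraries was among the 7 highest in T-cell or in myeloid sum, and 3 were among the 7 highest in B-cell sum.

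Over the 30 libraries, which include 2 from each dog, Spearman's correlation of FPKM was 0.82 between IL2RB and IL4R, 0.79 between IL7R and IL2RB, and 0.75 between IL7R and IL4R. Each of IL2RA, IL2RG and IL10RA had coefficients between -0.18 and 0.29 with all other chains. Among 3923 named genes above 1 FPKM, the profiles most like IL7R were those of PRKCQ (0.92), GCNT4 (0.91) and ICOS (0.90). PRKCQ, a protein kinase C, was also nearest to IL2RB (0.87), before TEF (0.86) and MAPKAPK3 (0.86). IL4R was most like CD84 (0.93), TAPBPL (0.92) and PLCG1 (0.92). IL2RG was most like MED12 (0.93), MARK2 (0.85) and R3HDM2 (0.84). MED12 is the next gene to IL2RG on chromosome X in the RefSeq annotation of another dog assembly. The strandedness of the libraries is not given in the sources used here, and whether reads of neighbouring genes were fully separated was not tested. The nearest profiles of IL2RA were NEK10 (0.74), RGS22 (0.72) and ENOSF1 (0.71), and those of IL10RA were EXTL3 (0.72), MFSD5 (0.69) and ORC5 (0.69).

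On FPKM, which corrects for transcript length, no single chain was the most abundant throughout. IL2RA was highest of the 6 in 12 libraries, IL7R in 8, IL10RA in 7 and IL2RG in 3. The libraries led by IL7R were both of dogs 028 and 029 and the 6-week ones of dogs 025, 034, 036 and 038. Over all libraries the medians were 12.8 FPKM for IL2RA, 10.4 for IL10RA, 7.93 for IL2RG, 3.77 for IL7R, 1.997 for IL4R and 1.02 for IL2RB. The ranges of neighbours in this order overlapped throughout, for example 0.968 to 36.7 FPKM for IL2RA and 2.26 to 30.3 FPKM for IL10RA.

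**Figure D4:**
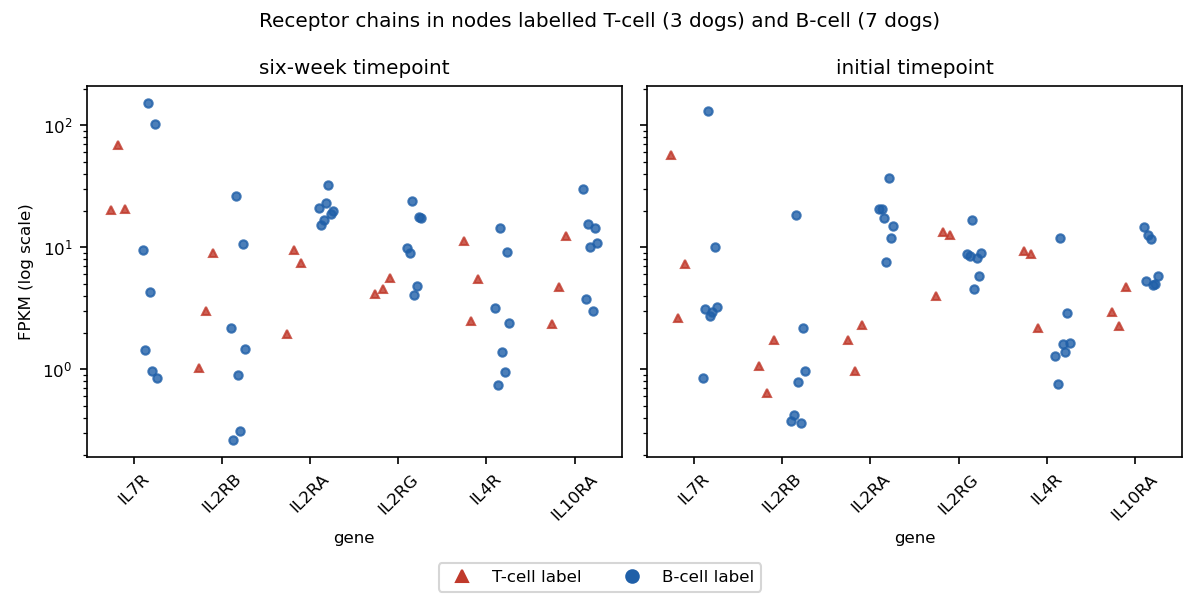
FPKM on a log scale of each chain in nodes labelled T-cell (3 dogs) and B-cell (7 dogs), at the 6-week and the initial timepoint. Among the 6 chains, IL2RA is the one whose labels do not overlap at either timepoint, with 1.93 to 9.46 FPKM in T-cell and 15.4 to 32.3 FPKM in B-cell nodes at 6 weeks, and 0.968 to 2.33 FPKM in T-cell and 7.52 to 36.7 FPKM in B-cell nodes initially. How many of all IDs had labels without overlap was not counted.

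Between immunophenotypes, 1 of the 6 chains passed the test at the initial timepoint, where 0.344% of the 14257 IDs did (0.238% were lower and 0.105% higher in nodes labelled T-cell). This was IL2RA, which was lower in nodes labelled T-cell. Its values were 1.76, 0.968 and 2.33 FPKM in dogs 028, 036 and 038, labelled T-cell, against 7.52 to 36.7 FPKM (median 17.3) in the 7 dogs labelled B-cell. The groups did not overlap, which was not counted over all IDs, and the log2 difference was -2.76 (SE 0.485, FDR-adjusted p-value 0.0347, limma). Dog 038 was as low as the other T-cell dogs although its B-cell sum was 139.8 FPKM, and dog 029 had 17.3 FPKM of IL2RA. Without dogs 029 and 038, which were left out for their marker sums, the difference was -2.93, given as a description with no test. The call was lost on leaving out dog 003, 025, 028, 033, 036 or 037 (FDR-adjusted p-values up to 0.224, limma), at lower limits on FPKM (0.0521 and 0.0954), in the 9 dogs (0.0623), in the 6 dogs (0.246, with dog 028 as the single T-cell dog), without dogs 033 and 036 (0.356), and in edgeR on the counts of 9 dogs (log2 difference -3.67, 0.0708). DESeq2 on the same counts called it (-3.66, 1.23e-05), where it called 14.6% of IDs and edgeR 0.0259%. The 5 untyped dogs had 3.91 to 26.6 FPKM initially, above all 3 T-cell values and across part of the B-cell range.

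At 6 weeks the IL2RA values in nodes labelled T-cell were 1.93, 9.46 and 7.46 FPKM in dogs 028, 036 and 038, still below the 15.4 to 32.3 FPKM of nodes labelled B-cell. The log2 difference of -1.75 (SE 0.554) did not pass (FDR-adjusted p-value 0.539, limma), and it was -2.001 without dogs 029 and 038 and -1.77 without dog 034. None of the 6 chains passed at 6 weeks (0 of 6, where 0% of all IDs did). DESeq2 and edgeR on the counts of 9 dogs called none of the chains either, with IL7R left without a p-value by DESeq2. At an unadjusted p-value under 0.05 in limma there were 2 of 6, IL2RA and IL2RG, beside 8.73% of all IDs. IL2RG, the second of these, had 4.15, 4.55 and 5.64 FPKM in T-cell nodes and 4.05 to 23.9 FPKM (median 9.92) in B-cell nodes, a log2 difference of -1.01 (SE 0.441, FDR-adjusted p-value 0.569, limma) with overlapping groups. It was -0.93 without dogs 029 and 038 and -0.89 without dog 034.

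Besides IL2RA, IL4R and IL10RA had an unadjusted p-value under 0.05 between labels at the initial timepoint (3 of 6 chains, limma), as did 21.8% of all IDs. IL4R had 9.27, 8.79 and 2.17 FPKM in dogs 028, 036 and 038, against 0.755 to 11.9 FPKM (median 1.63) in B-cell nodes, with a log2 difference of 1.10 (SE 0.512, FDR-adjusted p-value 0.226, limma). The overlap at this timepoint came from the 2 dogs whose markers go against their labels, since dog 038 was low at 2.17 FPKM and dog 029 supplied the 11.9 FPKM. Without both dogs, IL4R was higher in T-cell nodes by 1.99, and without dog 029 alone by 1.43. The T-cell dogs left without both were 028 and 036. Both dogs were left out for their marker sums, and the 7 libraries with the highest IL4R were the 7 with the highest T-cell sums. These differences are therefore given as a description with no test. At 6 weeks IL4R was at 11.2, 2.49 and 5.52 FPKM in dogs 028, 036 and 038 and from 0.746 to 14.5 FPKM in B-cell nodes. It differed by 0.69 (SE 0.670, FDR-adjusted p-value 0.756, limma). The 6-week groups overlapped also without dogs 029 and 038, with 2.49 FPKM in dog 036 and 9.12 FPKM in dog 034. Initially IL10RA had 2.93, 2.26 and 4.70 FPKM in T-cell nodes and 4.93 to 14.7 FPKM (median 5.80) in B-cell nodes. These groups did not overlap in FPKM, and how many of all IDs had groups without overlap was not counted. As a share of the summed FPKM of each library, the initial IL10RA groups did overlap. That share was 4.38 ppm in dog 038, labelled T-cell, and 4.13 ppm in dog 033, labelled B-cell. The log2 difference of -1.08 (SE 0.374) did not pass (FDR-adjusted p-value 0.123, limma), and it was -1.20 without dogs 029 and 038. At 6 weeks the groups overlapped, with IL10RA at 2.38 to 12.4 FPKM in T-cell nodes and 3.01 to 30.3 FPKM in B-cell nodes.

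IL7R and IL2RB overlapped between labels at both timepoints, and neither passed. At 6 weeks IL7R was at 20.2, 68.4 and 20.6 FPKM in dogs 028, 036 and 038 and from 0.853 to 153 FPKM (median 4.32) in B-cell nodes. The log2 difference was 1.71 (SE 1.37, FDR-adjusted p-value 0.702, limma), 2.65 without dogs 029 and 038 and 2.28 without dog 034. IL2RB was at 1.02, 3.02 and 9.01 FPKM in these T-cell dogs and from 0.265 to 26.4 FPKM (median 1.48) in B-cell nodes, and differed by 0.26 (SE 0.885, FDR-adjusted p-value 0.932, limma), by 0.15 without dogs 029 and 038 and by 0.55 without dog 034. At the initial timepoint IL7R was at 57.4, 2.62 and 7.26 FPKM in dogs 028, 036 and 038 and from 0.851 to 131 FPKM (median 3.15) in B-cell nodes, with a log2 difference of 0.82 (SE 1.04, FDR-adjusted p-value 0.669, limma). The difference was -0.32 without dog 028, so that its direction rested on that dog, and 1.80 without dogs 029 and 038. IL2RB was at 1.08, 0.644 and 1.75 FPKM in T-cell nodes and from 0.361 to 18.3 FPKM (median 0.795) in B-cell nodes, and differed by -0.24 (SE 0.629, FDR-adjusted p-value 0.848, limma). Without dog 029, which held its highest value, the difference was 0.26, and it was also positive in the 9 dogs (0.20) and without dogs 029 and 038 (0.07). IL2RG differed by 0.10 (SE 0.377, FDR-adjusted p-value 0.895, limma), and by 0.02 without dogs 029 and 038.

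The change under CHOP was also compared within labels. In the 3 T-cell dogs IL2RA was higher at 6 weeks by 2.41 in dog 036, 1.35 in dog 038 and 0.09 in dog 028 on the log2 scale, and IL2RG lower by values of -1.37 and -1.04 in dogs 036 and 038, with 0.05 in dog 028. The mean of IL2RA was 1.28 (SE 0.425, FDR-adjusted p-value 0.144, limma) and that of IL2RG was -0.79 (SE 0.353, FDR-adjusted p-value 0.228, limma). None of the 4 chains open to a test passed (0 of 4, where 0% of all IDs did, with these 2 at an unadjusted p-value under 0.05 beside 20.1% of all IDs). Without dog 028, in which the deposited counts do not follow the FPKM, IL2RA was higher by 1.88 (FDR-adjusted p-value 0.0235, limma), where 10.5% of all IDs passed, and without dog 036 it was higher by 0.72 and did not pass (0.683). IL2RG was at -1.21 without dog 028 and at -0.49 without dog 036, and passed in neither. Without dogs 029 and 038 the means were 1.25 for IL2RA and -0.66 for IL2RG, and none passed. On the counts of 9 dogs DESeq2 called IL2RA higher in T-cell dogs at 6 weeks (2.62, adjusted p-value 9.14e-05), where it called 13.3% of IDs, and edgeR did not (2.58, 0.0839, among 33 calls in all). The T-cell dogs in these counts were only 036 and 038, and the initial markers of dog 038 went against its label. In the 3 T-cell dogs the median log2 differences of the marker lists were 1.64 for myeloid, 1.26 for stromal and endothelial and 0.71 for B-cell genes. Their part in the changes of IL2RA and IL2RG was not tested.

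In the 3 T-cell dogs the IL7R change was 4.26 in dog 036, 1.38 in dog 038 and -1.46 in dog 028, a mean of 1.40 ± 2.86 (SD, n = 3) that was -0.0388 without dog 036 and 2.82 without dog 028. IL2RB was higher in dogs 038 (1.86) and 036 (1.29) and differed by -0.04 in dog 028. Without dogs 029 and 038 the T-cell means were 1.40 for IL7R and 0.63 for IL2RB. In the 7 B-cell dogs the IL7R change ranged from 3.22 in dog 034 to -1.19 in dog 037, with 4 dogs higher and a mean of 0.50 ± 1.74 (SD, n = 7). That mean rested largely on dog 034, as it was 0.05 without this dog, and it was 0.78 without dog 037 and 0.55 without dogs 029 and 038. IL2RB was higher in 5 of the 7, with a mean of 0.54 ± 0.746 (SD, n = 7), which was 0.32 without dog 034. In the 5 untyped dogs IL7R was higher at 6 weeks in all 5, by 0.07 to 5.03, and IL2RB in 4. The 4 tested chains had mean differences of 0.27 to 0.35 in B-cell dogs and of -0.25 to 0.62 in untyped dogs. None passed in either set (0 of 4 each, limma, where 0% of all IDs did), and none passed in edgeR or DESeq2. In limma none had an unadjusted p-value under 0.05, beside 3.84% of all IDs in B-cell dogs and 4.56% in untyped dogs.

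The difference in change, T-cell minus B-cell dogs, was 1.01 for IL2RA (SE 0.507, FDR-adjusted p-value 0.349, limma) and -1.11 for IL2RG (SE 0.422, FDR-adjusted p-value 0.265, limma). Neither passed, nor did IL4R and IL10RA (0 of 4, where 0% of all IDs did), and only IL2RG had an unadjusted p-value under 0.05, beside 15.3% of all IDs. DESeq2 on the counts of 9 dogs called IL2RA (2.31, adjusted p-value 0.0145) and IL2RG (-1.75, adjusted p-value 0.037), where it called 6.6% of IDs. On the same counts edgeR called neither (0.219 for both). These counts hold only 036 and 038 as T-cell dogs. Without dogs 029 and 038 the differences were 0.92 for IL2RA and -0.95 for IL2RG, and neither passed. For IL2RA the difference was 1.61 without dog 028, 0.45 without dog 036 and -0.26 in the 6 dogs, which hold 1 T-cell dog. The difference in change was 0.90 for IL7R and 0.50 for IL2RB, with no test for these 2 chains. The direction for IL7R turned without dog 036 (-0.54) and in the 6 dogs (-1.45), and the difference was 2.32 without dog 028 and 0.86 without dogs 029 and 038. For IL2RB it was 0.08 without dogs 029 and 038, 1.04 without dog 028 and -0.18 in the 6 dogs.

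Partners of the chains were taken from fixed lists of ligands, other receptor chains, kinases and feedback genes, of which 19 of 51 had an ID, and none of these passed in any of the 7 comparisons (limma). Of the 9 ligands, IL7 and IL15 could be followed. IL7, which feeds the IL7R receptor, had medians of 4.91 FPKM at 6 weeks and 4.75 FPKM initially (log2 difference 0.10, FDR-adjusted p-value 0.911, limma). IL7 was at 0, 0.769 and 4.74 FPKM in initial nodes labelled T-cell and from 4.75 to 10.7 FPKM in those labelled B-cell (-1.90, SE 0.438, FDR-adjusted p-value 0.0571, limma). IL15, a ligand that binds through IL2RB, had medians of 1.23 FPKM at 6 weeks and 0.699 FPKM initially (0.31, FDR-adjusted p-value 0.413, limma). Among 6 other receptor chains all had a positive difference at 6 weeks, led by IL18R1 with 0.67 (FDR-adjusted p-value 0.337, limma) and IL18RAP with 0.59 (0.303), both chains of the interleukin-18 receptor. Of 4 kinases and transcription factors, JAK1, the kinase bound by IL7R, IL2RB and IL4R, differed by -0.11 (FDR-adjusted p-value 0.651, limma). Of 7 feedback and target genes, only 4 had a positive mean difference at 6 weeks (median log2 difference 0.10), and none passed. Among the 7, CISH and SOCS2, feedback inhibitors induced through STAT5, were higher in 13 of 15 dogs each, by 0.50 and 0.37 (FDR-adjusted p-values 0.298 and 0.305, limma). Signalling through the receptors was not tested.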

How the data were processed

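Poly-A RNA of 30 aspirates (15 dogs) was sequenced as single reads. The authors aligned them with HISAT2 2.1.0 and quantified with StringTie 1.3.3 on CanFam3.1, per the labels' processing notes. The deposited FPKM give 1 value per gene ID and library, already corrected by the authors for length and depth and left on a linear scale. Their sum still differed between libraries, from 769269 in the initial library of dog 003 to 2.25e+06 in the later library of dog 033. The initial library of dog 033 had a sum of 1.19e+06. In this dog IL2RA was at 36.7 FPKM initially and 32.3 FPKM later, but at 30.7 and 14.3 ppm of these sums. The deposited read counts are unscaled whole numbers. Kit strandedness is not given in the sources used here.

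Members and lists were chosen with earlier results of these data known. Symbols were taken from the study's supplementary tables, which named 5086 of 32704 IDs. Named genes are the members, the 3 genes most correlated with each (Spearman, FPKM) and the pathway lists.

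IDs with a mean above 1 FPKM (14257) were tested as log2(FPKM+1) with limma 3.58.1 (R 4.3.3, trended eBayes, Benjamini-Hochberg, adjusted p under 0.05). The dog was a block between timepoints, following the study's donor factor. Contrasts of labels used 3 label groups with 1 shared spread. Counts under the same IDs followed FPKM in 9 dogs (Spearman 0.880 to 0.983) and not in 6 dogs (0.0868 to 0.117), so edgeR 4.0.16 and DESeq2 1.42.0 were run as alternatives on the counts of the 9 dogs, for 11592 IDs with a mean count above 50. Python 3.11.15, NumPy 2.4.6, pandas 2.3.3 and SciPy 1.17.1 were used for descriptions.

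Dog numbers in the library names gave the pairs, with 031_032 paired by elimination. Deviations from the timepoint means correlated within dogs with a median of 0.601; 14 of 15 were above 0.1 (lowest -0.114) and 9 of 15 dogs matched their own partner best. The lowest was dog 025, and dogs 034 (0.231) and 036 (0.111) did not match their own partner best either; these 3 dogs had the largest IL7R changes. No 2 libraries of a timepoint were copies (lowest chi-square per degree of freedom 38.3).

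In simulated FPKM for 15 dogs, limma called 83% of the genes set to change by 1 between timepoints and 98% of those set to change by 2. These steps were on the log2(FPKM+1) scale, so for genes of low FPKM they are larger than 2-fold and 4-fold. Between labels limma recovered 14% and 77% at the initial timepoint and 13% and 79% at 6 weeks. For the change in T-cell dogs the shares were 29% and 80%, and for the difference in change 15% and 66%. Between timepoints limma made 9 false calls in simulated FPKM. In simulated counts of the 9 dogs DESeq2 made 39 false calls and edgeR 7. Those counts had the same dispersion for every gene and no difference between dogs, unlike the data. The false calls of DESeq2 and edgeR therefore cannot be set beside those of limma. Alternatives were the pseudocount, limits on low FPKM, quantile scaling, no trend, no block, leaving out dogs, and counts. A further 3 sets of dogs were chosen after seeing the data: the 9 dogs, the 6 dogs, and all without dogs 033 and 036. The libraries of dogs 033 and 036 at 6 weeks had the highest FPKM sums of all libraries.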

Additional observations from a re-analysis of the deposited data

Results flagged for a closer look

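In groups of 5 or 7 dogs, 8 of 36 groups of log2(FPKM+1) values or changes had a dog far from the rest (a gap to its neighbour that is large beside the whole range of the group, Dixon's test). The groups share dogs and libraries, and IL7R, IL2RB and IL4R varied together, so this number cannot be set against chance. IL7R and IL2RB were picked for their rise at 6 weeks, so flags on their values are a description. Dog 029 was the highest of the B-cell dogs at the initial timepoint for IL7R (gap 0.58 of the range), IL2RB (0.679) and IL4R (0.597), with 131, 18.3 and 11.9 FPKM. It is the B-cell dog with a T-cell sum of 507 FPKM in that library. Dog 025 was the highest of the untyped dogs for IL7R at 6 weeks (0.726) and for the change of IL4R (0.906), and the lowest for IL10RA initially (0.841). Dog 035 was the highest untyped dog for IL2RB initially (0.715) and dog 031_032 for IL2RG initially (0.738).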

How the results depend on the processing

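The time change of IL7R and IL2RB in all dogs is a description, since both were picked for their rise and its direction was largely fixed. That direction was kept in every alternative run (0.94 to 1.41 for IL7R and 0.67 to 0.88 for IL2RB without 1 dog at a time), but not within labels. IL7R in T-cell dogs changed sign without dog 036 or without dogs 033 and 036 (-0.0388 each, against 2.82 without dog 028), and in the 6 dogs (-1.46), where IL7R in B-cell dogs (-0.0115) and IL2RB in T-cell dogs (-0.0393) did so too. The difference in change of IL7R turned to -0.54 without dog 036, to -0.79 without dogs 033 and 036 and to -1.45 in the 6 dogs. The 6 dogs hold 1 T-cell dog, assumed to vary like the others. Counts of calls over all IDs moved more. A limit of 0.1 FPKM gave 3086 calls between timepoints (3040 higher) and 19 between labels initially, and no limit gave 3054 and 6. A pseudocount of 0.1 gave 13 calls for the T-cell change and 4 for the difference in change. Quantile scaling gave 150 calls between labels initially, with 93 higher and 57 lower in T-cell nodes, against 15 and 34 among the 49 as reported. Without dogs 029 and 038 there were 3446 calls initially and 11 at 6 weeks, and without dogs 033 and 036 there was 1 initially. edgeR gave 3 between labels initially, 33 for the T-cell change and 9 for the difference in change. DESeq2 gave 498 between timepoints, 1698 and 12 between labels at the initial and 6-week timepoints, 2, 1537 and 83 for the change in B-cell, T-cell and untyped dogs, and 765 for the difference in change. limma in the 9 dogs gave 15 initially, 70 for the T-cell change and 9 for the difference in change, and in the 6 dogs 12 at 6 weeks, 7 for the T-cell change and 6 for the difference in change. Leaving out 1 dog at a time gave 1 (without dog 028 or 036) to 2296 calls (without dog 038) between labels initially, 0 to 5 at 6 weeks, 0 to 1491 for the T-cell change and 0 to 612 for the difference in change, both highest without dog 028. Without the replicate block that pairs the 2 libraries of a dog, limma called 0 genes in each of the 5 comparisons with a time term, and the block changed no call of a receptor chain. The causes were not tested. Shallow libraries limit the low values: IL2RB rested on 17 reads at the least.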

Other observations

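Stromal and endothelial genes all had positive mean log2 differences at 6 weeks (6 of 6 tested, median 0.39), and proliferation genes all had negative ones (6 of 6, median -0.51), where none passed the test and the median of all IDs was -0.01. MKI67, a marker of cycling cells, differed by -0.52 (SE 0.207, FDR-adjusted p-value 0.330, limma). Between labels at the initial timepoint, FCRL1, a receptor of B cells, was the single marker gene that passed, with 0, 0.381 and 5.15 FPKM in T-cell nodes, the highest in dog 038, and 5.71 to 13.7 FPKM in B-cell nodes (log2 difference -2.21, SE 0.421, FDR-adjusted p-value 0.0445, limma). Marker genes were not refitted without dogs 029 and 038.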
